A study of Mus musculus with 4 samples.

Results

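Immediate early genes are transcribed within minutes of a stimulus, without new protein synthesis, and a set of 10 of them and of related stress response genes was examined in cultured mouse bladder epithelium with and without p63: Fos, Fosb, Fosl1, Jun, Junb, Egr1, Atf3, Ier2, Ier3 and Dusp1. Members were found by their gene symbol in the array's annotation, and 9 of the 10 had a transcript cluster (a gene-level group of probes) that carried their symbol alone, among 14996 such clusters and 23332 clusters in all. Each of the 9 had 1 such cluster, and no expression value of Fosb was analysed here. The p63 knockout group (KO-BL, here KO) and the wild-type group (WT-BL, here WT) each held 2 samples with 1 Affymetrix Mouse Exon 1.0 ST array per sample. Both came from bladders of newborn C57BL/6j mice, dissociated with collagenase, and both were epithelial stem cell cultures grown on 3T3 cells, a mouse fibroblast line that serves as a feeder layer, from which colonies were picked for RNA. p63, a relative of p53 that marks the basal layer of stratified epithelia and controls transcription there, is encoded by Trp63, and the labels do not name the disrupted part of the gene. Nothing in the labels says whether the arrays of a group came from separate mice, so p-values measure the spread between these samples, which may be technical.

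Growth factors, serum, ultraviolet light, tissue dissociation and other stresses activate mitogen-activated protein kinases (MAPK), which act on serum response factor, its Elk partners and CREB at the promoters of these genes. Fos and Jun proteins pair through leucine zippers to form AP-1, the dimeric factor that carries the response on to later genes in epithelia and fibroblasts alike. Egr1 is a zinc finger factor, Atf3 a stress-induced zipper protein that often represses, Dusp1 a phosphatase that shuts off the kinases, and Ier2 and Ier3 are small immediate early response proteins.

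Such signals act through elements in the promoters, so the 150 bases before the transcription start are given for 6 measured members whose sequence was matched (RefSeq, GRCm38.p6, 5′ to 3′ on the gene's strand). Capitals mark TGACG, the core of the cyclic AMP response element that CREB and ATF proteins bind, GGGCGG, the GC box bound by Sp1, and TATAAA, each read on both strands.
Atf3, chr1:191183334-191183483 (minus strand): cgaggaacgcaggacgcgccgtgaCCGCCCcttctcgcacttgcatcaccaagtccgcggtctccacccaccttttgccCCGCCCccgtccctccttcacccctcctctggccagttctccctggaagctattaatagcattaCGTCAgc
Ier3, chr17:35821563-35821712 (plus strand): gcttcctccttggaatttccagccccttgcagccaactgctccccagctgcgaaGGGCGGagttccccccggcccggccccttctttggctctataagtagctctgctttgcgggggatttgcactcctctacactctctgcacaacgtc
Fos, chr12:85473740-85473889 (plus strand): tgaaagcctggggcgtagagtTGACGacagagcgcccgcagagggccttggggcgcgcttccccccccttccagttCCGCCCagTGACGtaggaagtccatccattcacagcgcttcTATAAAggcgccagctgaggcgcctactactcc
Dusp1, chr17:26508473-26508622 (minus strand): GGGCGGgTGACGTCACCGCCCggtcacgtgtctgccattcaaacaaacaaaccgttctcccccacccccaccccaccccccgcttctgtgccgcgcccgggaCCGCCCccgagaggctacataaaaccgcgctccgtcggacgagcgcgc
Jun, chr4:95052223-95052372 (minus strand): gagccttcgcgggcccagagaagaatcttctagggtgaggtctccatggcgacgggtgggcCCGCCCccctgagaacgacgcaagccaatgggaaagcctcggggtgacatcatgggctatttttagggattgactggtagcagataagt
Junb, chr8:84978749-84978898 (minus strand): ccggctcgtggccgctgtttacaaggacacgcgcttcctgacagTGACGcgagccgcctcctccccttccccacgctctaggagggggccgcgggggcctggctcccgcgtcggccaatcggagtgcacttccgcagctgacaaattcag
Promoters were used for 7 members, the 6 above and Fosb, and those of Fosl1, Egr1 and Ier2 are not shown. The member set left out promoters on the chromosome that carries Egr1, a step not applied to the background windows. The core TGACG was found in 5 of these 7 windows, those of Fos, Fosb, Junb, Atf3 and Dusp1, against 13.32% of the 32851 windows of this length in the table. In Dusp1 a forward and a reverse copy overlap to form a full palindromic element, between 143 and 136 bases before the start, and a GC box lies directly next to it. Fos has copies that begin 129 and 66 bases before the start. The GC box was found in 6 of 7 windows (28.62% of all windows) and TATAAA in the Fos window alone among the 7 (7.57%). Neither the AP-1 site TGANTCA (4.24% of all windows) nor the CArG box of serum response factor (0.92%) has its letters in any of the 7 windows. Sites outside these 150 bases or with other spellings were not searched, so this does not show that the genes lack them. These matches are descriptions of sequence, and binding was not measured here.

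Trp63 was at 4.60 and 4.74 log2 units on the KO arrays, against 8.98 and 8.99 on the WT arrays (limma adjusted p = 0.0153). Correlations across clusters were 0.93 between the KO arrays, 0.98 between the WT arrays and 0.91 to 0.92 between the groups. Epithelial genes were present in both groups, with Epcam at 8.92 and 8.77 on KO arrays against 8.55 and 8.56 on WT arrays. Of 14 urothelial markers 9 were called lower (Krt5, Krt14, Krt15, Dsg3, Col17a1 and the uroplakin genes Upk1a, Upk1b, Upk2 and Upk3a). The other 5 (Krt18, Krt19, Krt20, Cdh1 and Epcam) did not pass. Both KO arrays lay below both WT arrays for 12 of the 14 and above them for 2, beside 20.9% and 36.2% of all clusters. Krt18 was at 10.73 and 10.63 on KO arrays against 11.30 and 11.32 on WT arrays (-0.63, limma adjusted p = 0.153). Krt19 had a mean of 9.03 on KO arrays against 10.41 on WT arrays (-1.38, limma adjusted p = 0.142). Krt20, a keratin of superficial urothelial cells, was at 9.64 and 8.72 on KO arrays against 7.04 and 7.13 on WT arrays (2.10, limma adjusted p = 0.0961). Fibroblast transcripts, which the feeder layer also makes, were measured in both groups, and the level of Sparc was 10.95 and 11.73 on KO arrays against 11.14 and 10.73 on WT arrays.

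Of the 9 members 0 passed limma's test at an adjusted p under 0.05 over all 23332 clusters, where 0.527% of clusters passed, 0.141% as higher and 0.386% as lower. At an unadjusted p under 0.05, 3 of the 9 members were higher in the knockout (Atf3, Egr1 and Ier3) and 0 lower, against 14.6% of all clusters higher and 7.70% lower. The median log2 difference of the 9 members, knockout minus wild type, was 0.39, and that of all clusters was 0.12. Both KO arrays lay above both WT arrays for 6 members (Atf3, Egr1, Ier3, Ier2, Fos and Fosl1), and both lay below for 2 (Jun and Junb). Across all clusters these shares were 36.2% and 20.9%, so with 2 arrays a group a lack of overlap is common. The smallest difference that passed in the whole table was 1.89 on the log2 scale, and the 95% intervals of all 9 members ended below that, the highest at 1.76 for Atf3, so a count of 0 does not show that the members were unchanged. In bulk RNA from colonies, fewer cells with a transcript and less of it per cell cannot be told apart.

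**Figure D1:**
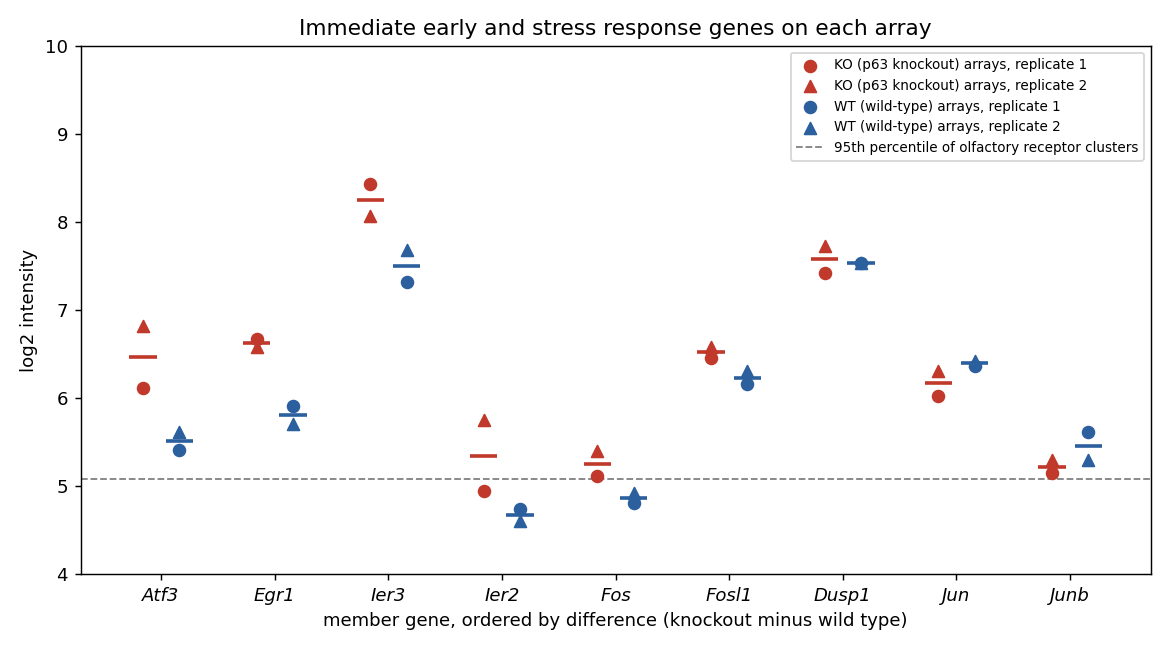
Log2 intensity (vertical axis) of each of the 9 measured members on each array, with KO arrays in red left of WT arrays in blue, circles for replicate 1, triangles for replicate 2 and short lines at group means. The red points lie above the blue points for Atf3, Egr1, Ier3, Ier2, Fos and Fosl1, overlap them for Dusp1 and lie below them for Jun and Junb. The dashed line is the 95th percentile of olfactory receptor clusters, at 5.08, a guide to the signal of silent genes.

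The transcription factors outside the Fos and Jun families, Atf3 and Egr1, had the largest differences of the 9. Atf3, a member of the ATF and CREB family induced by amino acid shortage, DNA damage and wounding, was at 6.12 and 6.81 log2 units on the KO arrays, against 5.42 and 5.61 on the WT arrays. Both KO values were above both WT values, and the gap between the groups of 0.51 was narrower than the KO range of 0.70. The difference was 0.95 ± 0.30 (SE), or 1.93-fold with a 95% interval of 1.11 to 3.38, and the limma adjusted p was 0.187.

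Egr1, a zinc finger factor and a classic read-out of ERK signalling, was at 6.67 and 6.58 on the KO arrays, against 5.92 and 5.71 on the WT arrays. The groups did not overlap, and the gap of 0.66 was wider than the range within KO (0.09) and within WT (0.21). Its difference of 0.81 ± 0.18 (SE), 1.76-fold with a 95% interval of 1.26 to 2.45, had the lowest limma adjusted p of the members, 0.124, and did not pass.

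Among the small immediate early response genes, Ier3, a stress-induced protein that modulates cell survival, was at 8.43 and 8.07 on the KO arrays, against 7.32 and 7.68 on the WT arrays. The KO values were the higher ones on both arrays, by a gap of 0.39 over ranges of 0.37 in KO and 0.36 in WT. The difference was 0.75 ± 0.24 (SE), a 1.69-fold higher mean with a 95% interval of 1.08 to 2.64 (limma adjusted p = 0.19). Ier2, a nuclear immediate early protein, was at 4.95 and 5.75 on the KO arrays, against 4.74 and 4.61 on the WT arrays. KO replicate 2 was the high array, and replicate 1 lay 0.21 above the nearest WT array. The Ier2 difference of 0.68 ± 0.32 (SE) had a 95% interval of -0.20 to 1.56 and a limma adjusted p of 0.307. Without KO replicate 2 it was 0.27, and without KO replicate 1 it was 1.08.

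Fos, the AP-1 subunit that cannot pair with itself and needs a Jun partner, was at 5.11 and 5.40 on the KO arrays, against 4.81 and 4.92 on the WT arrays. The groups were separated by 0.20, less than the KO range of 0.28. The difference was 0.39 ± 0.19 (SE) with a 95% interval of -0.12 to 0.91 (limma adjusted p = 0.311). For Ier2 and Fos part of the values lay at or below 5.08, a guide to the signal of silent genes taken as the 95th percentile over 719 clusters of olfactory receptors. On the WT arrays both were below it, and the folds are open to understatement there. The other 7 members were above it on all 4 arrays. That guide lies near the median of all clusters, so a value below it does not show that a gene was silent.

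Fosl1, which encodes the Fos family protein Fra-1 that is made later and lasts longer than Fos, was at 6.46 and 6.59 on the KO arrays, against 6.16 and 6.30 on the WT arrays. Its 4 values lay close together, and the knockout pair was the higher one by a gap of 0.15. The difference of 0.29 ± 0.17 (SE) had a 95% interval of -0.18 to 0.76 and a limma adjusted p of 0.387. Egr1, Ier3 and Fosl1 were the 3 members whose gap between groups was wider than the range in each group.

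The KO means of both Jun family members were below the WT means, and neither passed the test. Jun, which can form AP-1 with itself or with Fos, was at 6.03 and 6.31 on the KO arrays, against 6.37 and 6.43 on the WT arrays. Junb, a family member that often counteracts Jun in epithelia, was at 5.15 and 5.29 on the KO arrays, against 5.62 and 5.30 on the WT arrays. The KO values were the lower ones for both genes, by 0.055 for Jun and by 0.0067 for Junb, gaps narrower than the range within a group. The difference was -0.23 ± 0.19 (SE) for Jun, with a 95% interval of -0.74 to 0.28, and -0.24 ± 0.20 (SE) for Junb, with an interval of -0.78 to 0.30 (limma adjusted p = 0.512 and 0.516). The size of the difference was below the KO range of 0.29 for Jun and below the WT range of 0.32 for Junb. The Jun difference was -0.08 without KO replicate 1 and -0.37 without KO replicate 2, and the Junb difference was -0.08 without WT replicate 1 and -0.40 without WT replicate 2. The contrast in sign between the Jun genes and Fos was not tested.

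Dusp1, the nuclear phosphatase that inactivates p38, JNK and ERK, was at 7.42 and 7.73 on the KO arrays, against 7.54 and 7.53 on the WT arrays. The WT values lay between the KO values, which makes it the only one of the 9 members with overlapping groups. The difference was 0.04 ± 0.19 (SE), and its 95% interval of -0.48 to 0.56 bounds a fold between 0.72 and 1.48 (limma adjusted p = 0.917). It was 0.20 without KO replicate 1 and turned to -0.11 without KO replicate 2.

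**Figure D2:**
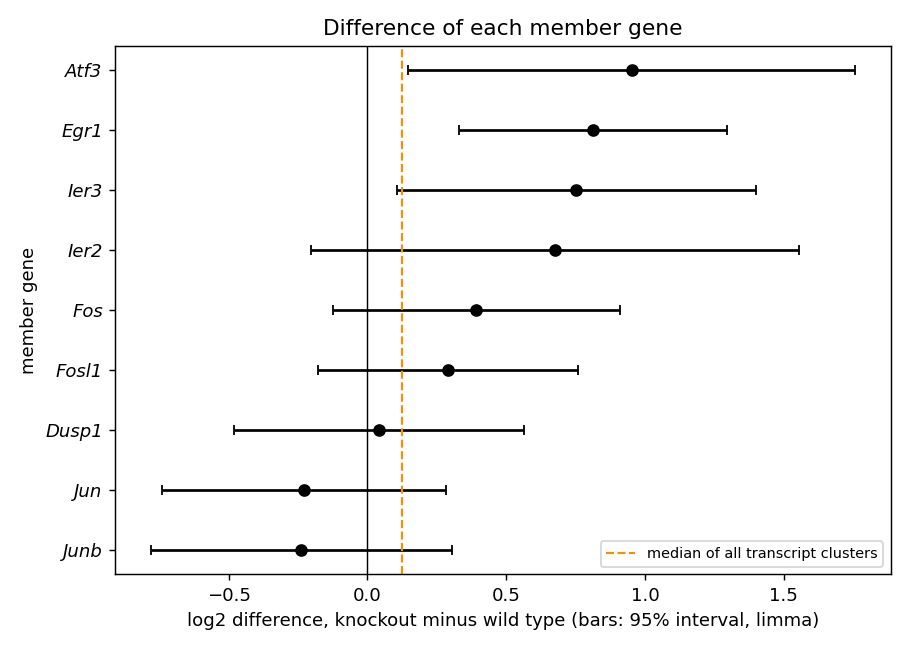
Log2 difference, knockout minus wild type (horizontal axis), of each member (vertical axis), with 95% intervals from limma as bars, a solid line at 0 and a dashed line at the median of all clusters (0.12). The intervals of Atf3, Egr1 and Ier3 lie above 0, and those of the other 6 members span it.

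The zero point of the comparison depends on the scaling and on the clusters used. The median difference of all clusters was 0.12 on the deposited values and 0.0029 after quantile normalization. Without the dimmest clusters, up to the 25th percentile of the mean, it was 0.036 on the deposited values. The lower quartile was 4.06 and 4.06 on KO arrays against 3.80 and 3.82 on WT arrays. The upper quartile was 6.49 and 6.50 on KO arrays against 6.51 and 6.55 on WT arrays. The shift of 0.12 was thus not common to all levels. Measured from the median of all clusters, the members' differences were 0.83 for Atf3, 0.69 for Egr1, 0.63 for Ier3, 0.55 for Ier2, 0.27 for Fos and 0.16 for Fosl1. On that footing Dusp1 was at -0.08, Jun at -0.35 and Junb at -0.36. Dusp1 thus changed sign with the zero point, while it stayed positive after quantile normalization (0.04) and cyclic loess (0.06). The other 8 members kept their sign in each of these settings.

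The arrays of a group also differed in these genes. KO replicate 2 was higher than replicate 1 for 7 of 9 members, all but Egr1 and Ier3, and the median gap over the 9 was 0.28, whereas 50.5% of all clusters were higher on replicate 2. The largest such gaps were those of Ier2 (0.81) and Atf3 (0.70). In the wild type, 5 of 9 members were higher on replicate 2, and the largest gap, that of Ier3, was 0.36. The difference of Atf3 was 0.60 without KO replicate 2 and 1.30 without KO replicate 1, and that of Fos was 0.25 without KO replicate 2 and 0.53 without KO replicate 1. The KO range was the wider one for 6 of 9 members, against 65.1% of all clusters. The median of the 9 members was 6.12 and 6.58 on the KO arrays, against 5.92 and 5.71 on the WT arrays.

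**Figure D3:**
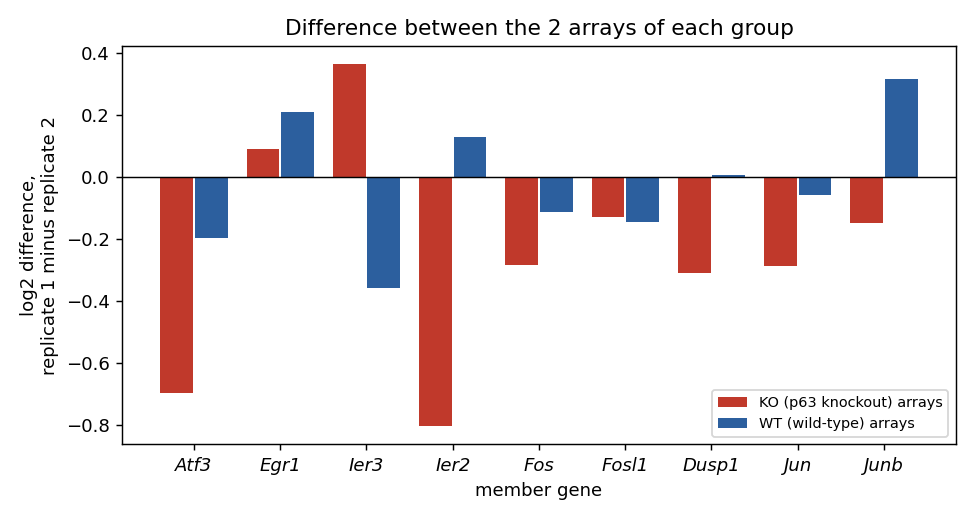
Log2 difference between the replicate arrays of a group, replicate 1 minus replicate 2 (vertical axis), for each member (horizontal axis), with knockout bars in red left of wild-type bars in blue. Knockout bars point down for 7 of 9 members, furthest for Ier2 (-0.81) and Atf3 (-0.70).

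Markers of other cells in the picked colonies moved between arrays as well. Of 19 fibroblast and feeder cell markers 17 were higher on KO replicate 2 than on replicate 1 (median gap over the 19 of 0.51), and 15 were higher on WT replicate 1 than on replicate 2 (median gap 0.44). Their summed linear intensity was 6746 and 9857 on KO arrays, against 8701 and 7614 on WT arrays, so the groups overlapped, and 0 of 19 passed the test (1 higher and 2 lower at an unadjusted p under 0.05). Their median difference was 0.12, with 13 positive and 6 negative. The most intense after Sparc were S100a4, at 10.02 and 9.33 in KO against 10.18 and 10.95 in WT, and Dcn, at 8.92 and 9.02 in KO against 10.89 and 9.95 in WT, both with a lower KO mean, whereas the mesenchymal filament gene Vim was at 9.71 and 10.39 in KO against 9.06 and 9.18 in WT (0.93, limma adjusted p = 0.186). The summed intensity was 236 and 203 in KO against 530 and 314 in WT for 10 endothelial markers (led by Egfl7, Eng and Pecam1), 714 and 498 in KO against 431 and 353 in WT for 10 leukocyte markers (led by Cd68, Cd14 and Laptm5), and 420 and 479 in KO against 363 and 233 in WT for 7 smooth muscle markers (led by Acta2, Smtn and Tagln), with 0 calls in each list and 0 and 3, 2 and 1, and 1 and 0 higher and lower at an unadjusted p under 0.05. At or below the silent guide on all 4 arrays were 1 fibroblast marker, 4 endothelial, 8 leukocyte and 2 smooth muscle markers, the fibroblast gene Fap and the pan-leukocyte gene Ptprc among them. The part of these cells in the members' values was not tested.

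The members were set beside 118 measured genes in 9 related lists of the same response, its inputs and other stress responses. Of these, 0 were called higher and 1 lower (0.847% of 118, against 0.527% of all clusters), while at an unadjusted p under 0.05 there were 27 higher (22.9%) and 15 lower (12.7%), beside 14.6% and 7.70% of all clusters. Both KO arrays were above both WT arrays for 53 genes (44.9%) and below for 22 (18.6%), beside 36.2% and 20.9% of all clusters. Single values in parentheses after the genes of these lists are log2 differences, KO minus WT.

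The 9 other AP-1 and partner subunits all had a positive difference, as 60.3% of all clusters did, and 7 of the 9 lay above the median of all clusters. Their median was 0.25, with 0 calls (1 higher at an unadjusted p under 0.05). Mafg, a small Maf protein, was at 7.45 and 7.43 on KO arrays against 6.36 and 6.67 on WT arrays (0.93, limma adjusted p = 0.117), and the AP-1 repressor Jdp2 (0.28) and the Jun partner Atf2 (0.19) differed less. Among 16 other immediate early transcription factors the median was 0.23, with 0 calls and with 2 higher and 0 lower at an unadjusted p under 0.05. These were the orphan nuclear receptor Nr4a1, at 6.98 and 7.13 in KO against 5.95 and 6.42 in WT (0.87, adjusted p = 0.16), and the Egr1 relative Egr3, at 5.17 and 5.69 in KO against 4.73 and 4.81 in WT (0.66, adjusted p = 0.221). Both WT values of Egr3 were below the silent guide, so its difference is open to understatement, as is that of Jdp2. Klf10 (-0.35) and Ier5 (-0.31) were below the wild type on both arrays, and Klf6 (-0.07) and the Egr repressor Nab1 (-0.09) overlapped.

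Of 24 other immediate early response genes 22 had a positive difference, beside 60.3% of all clusters, and 17 lay above the median of all clusters. Their median was 0.52, and 11 were higher and 1 lower at an unadjusted p under 0.05, but 0 were called. Ccn1, a secreted matricellular protein induced by serum and by mechanical cues, was at 8.32 and 8.98 on KO arrays against 5.95 and 5.73 on WT arrays, 7.02-fold higher in mean (limma adjusted p = 0.0578). Its relative Ccn2 was at 7.81 and 8.52 on KO arrays against 6.19 and 6.00 on WT arrays, 4.20-fold higher in mean (adjusted p = 0.0826). Both are also targets of YAP. Zfp36l1, which speeds decay of AU-rich messages (0.87), and Errfi1, a feedback inhibitor of the EGF receptor (1.00), had all KO values above the WT values, and Phlda1 (-0.96) and Plk3 (-0.34) had them below.

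The 14 other MAPK phosphatases and feedback inhibitors, the relatives of Dusp1 in role, had a median of 0.0028, with 0 calls and with 2 higher and 4 lower at an unadjusted p under 0.05. Dusp16, a JNK phosphatase, was at 5.90 and 5.70 on KO arrays against 7.15 and 7.06 on WT arrays (-1.31, limma adjusted p = 0.0764). Dusp6, the ERK phosphatase (-0.87), and Spred2 (-0.67) were below the wild type on both arrays, and Spry1 (0.90, with both WT values below the silent guide) and Dusp10 (0.67) above it. The 15 MAPK and serum response factor inputs had a median of -0.06, with 0 calls and with 0 higher and 3 lower at an unadjusted p under 0.05. Map3k1, a kinase upstream of JNK, was at 5.20 and 5.08 on KO arrays against 6.44 and 6.67 on WT arrays (-1.42, adjusted p = 0.0729). Elk4 (-0.63) was below the wild type on both arrays, Elk3 (0.28) and Mapk9 (0.35) above it, and Creb1 (-0.13) and Rps6ka3 (-0.08) overlapped.

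Heat shock genes (6 measured of 12 listed) had a median of -0.23, and 1 of the 6 was at or below the silent guide on all 4 arrays. Integrated stress and unfolded protein response genes (14 of 14) had a median of 0.20, and oxidative stress genes (6 of 8) one of -0.69. Each of the 3 lists had 0 calls, with 1 and 1, 3 and 1, and 1 and 3 higher and lower at an unadjusted p under 0.05. Ddit3, which encodes the stress factor CHOP, was at 9.57 and 8.89 on KO arrays against 8.03 and 8.10 on WT arrays (1.17, limma adjusted p = 0.143). The chaperones Hsph1 (0.91) and Hspa5 (0.78), the phosphatase subunit gene Ppp1r15a (0.80) and the haem oxygenase gene Hmox1 (0.77) were above the wild type on both arrays. The co-chaperone Bag3 (-0.52), Sesn2 (-0.59), Herpud1 (-0.42), Slc7a11 (-1.58), Nqo1 (-1.50), Gclc (-0.96) and Txnip (-0.43) were below it, the last 4 being oxidative stress genes, and Nupr1 (0.27) overlapped. Both KO values of Nqo1 and Sesn2 and 1 WT value of Ppp1r15a were below the silent guide, so these differences are open to understatement.

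Known AP-1 target genes held the 1 call of the related lists. Mmp10, a stromelysin that degrades matrix, fell 3.89-fold, to 4.69 and 4.81 on KO arrays against 6.68 and 6.74 on WT arrays (limma adjusted p = 0.0452). Both KO values were below the silent guide, so the fold is open to understatement. The call was lost with any 1 of the 4 arrays left out, as was every other call in the whole table. The other 13 of 14 did not pass, 6 being higher and 1 lower at an unadjusted p under 0.05, and the median of the list was 0.52. Of the 14, 7 were above the silent guide on all 4 arrays and 4 were at or below it on all 4. Among the 6 counted as higher, Mmp1a and Lif were at or below the guide on all 4 arrays, and Mmp13 was above it on 1. The count and the median thus rest in part on values below the guide. The metalloproteinase inhibitor gene Timp1 was at 7.36 and 7.56 on KO arrays against 5.85 and 5.74 on WT arrays (1.66, adjusted p = 0.0622). Il6 was at 4.52 and 6.12 on KO arrays against 3.38 and 3.26 on WT arrays, with the high value on KO replicate 2, as for Ier2 and Atf3 (2.00, adjusted p = 0.174), and only that array was above the silent guide. Ccnd1 (1.11) was above the wild type on both arrays, Cd44 (-0.91) below it, and Vegfa (-0.21) overlapped.

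**Figure D4:**
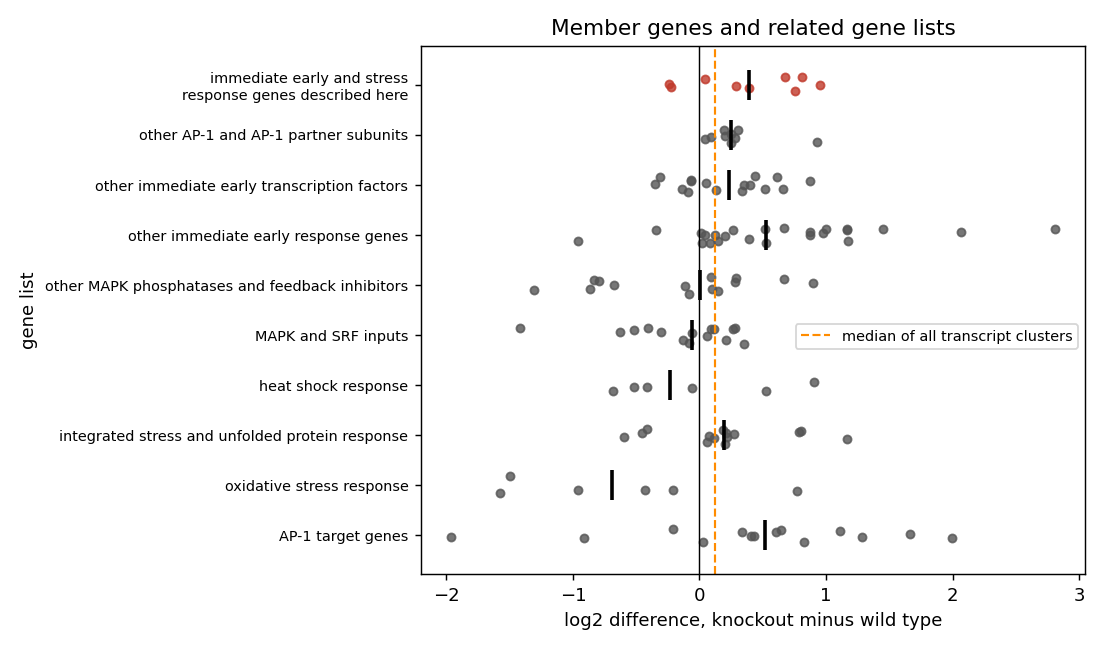
Log2 difference, knockout minus wild type (horizontal axis), of each measured gene in the set described here (red) and in the 9 related lists (grey), with black bars at list medians, a solid line at 0 and a dashed line at the median of all clusters (0.12). Medians run from -0.69 for oxidative stress genes to 0.52 for both the other immediate early response genes and the AP-1 target genes, and 0.39 is the median of the set described here.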

How the data were processed

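The deposited table holds log2 intensities that the authors summarised for 23332 transcript clusters on 4 arrays. That they are log2 was inferred from their range, 0.79 to 13.9. The submitters' processing notes name Partek, Affymetrix Expression Console and build mm9. Probe summarisation, array normalization and tool versions are unstated in the labels and headers used here. The number of arrays limits the precision. Symbols came from GEO's platform annotation, and older symbols in the lists were matched through RefSeq synonyms. Clusters with several symbols (1019) or none listed (7317) were tested and never named. Where a listed gene had several clusters, the one with the highest mean stood for it.

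Groups were compared over all clusters in R 4.3.3 by limma 3.58.1 (two-sided moderated test of lmFit and eBayes, no covariates, no filter), with Benjamini-Hochberg adjustment. The fit was tested on simulated data. Values with ± give the standard error of the fit. Promoters came from RefSeq's GRCm38.p6 table. Members and lists were chosen with earlier results of these data known. Named genes are all members, Trp63, every call in a related list, its 2 largest differences each way among genes without overlap, its 2 most intense genes, and the 3 most intense markers of each cell type. Outside that rule, Ptprc, Fap, Vim, Krt20, Cdh1, Mmp1a, Lif, Mmp13 and the 9 called urothelial markers were named after their values were seen. Alternatives were other normalizations, a filter on dim clusters, a trended robust variance, a replicate block, each array left out, and averaged clusters.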

Additional observations from a re-analysis of the deposited data

How the results depend on the processing

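Of the 9 members 0 passed limma's test under any of the alternatives run (0 to 4 at an unadjusted p under 0.05), and 8 kept the sign of their difference in all of them. With single arrays left out, Dusp1 ran from -0.11 (without KO replicate 2) to 0.20 (without KO replicate 1). The members' lowest adjusted p in any of these settings was 0.0854, for Atf3 without KO replicate 1, and their median difference ran from 0.25 (without KO replicate 2) to 0.53 (without KO replicate 1). Clusters called in the whole table numbered 123 as reported, 362 when the dimmest clusters, up to the 25th percentile of the mean, were left out, 257 with a trended robust variance, 0 with the replicate block and 0 without any 1 of the 4 arrays (4525 at an unadjusted p under 0.05 with the block, and 2124 to 6570 without 1 array). Called genes in the related lists numbered 1 as reported and 6 with that filter (Mmp10, Ccn1, Timp1, Nqo1, Map3k1 and Dusp16). They numbered 3 with the trended robust variance (Mmp10, Ccn1 and Timp1) and 0 with the replicate block (37 at an unadjusted limma p under 0.05). Every call in the whole table was lost with the block or without any 1 array, so that loss is not particular to Mmp10. The filter tests fewer clusters, and leaving out an array or adding the block leaves fewer residual degrees of freedom. Replicate numbers were taken only to name the samples, since nothing in the labels says that they pair them. The deviations of same-numbered arrays correlated at 0.019 over all clusters, which cannot show that pairing is absent. A sample left alone in its group was assumed to vary like the other group. With 2 arrays a group, no outlier test could be run. The mean of all clusters of a gene gave the same values, since each member had 1 cluster.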
